A study of Homo sapiens with 3 samples.

Results

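Translesion synthesis and DNA damage tolerance were represented by 10 genes, which were chosen by name, with earlier results of these data known. They were POLH, POLI, POLK, REV1, REV3L, MAD2L2, PRIMPOL, RAD18, PCNA and HLTF, and all 10 were found among the 58051 genes of the deposited counts. RNA was sequenced from 3 replicates of H9, an established line of human embryonic stem cells, of wild-type genotype and without treatment, after ribosomal RNA had been depleted. Genes were given as Ensembl identifiers, which were matched to symbols in GENCODE release 44 on GRCh38. The cells formed a single condition, so no groups were compared and the error is the spread between the 3 replicates. The labels do not say whether the replicates came from separate cultures, so this spread may be technical. The study measured expression to sort genes by level before it compared DNA breaks at their start and splice sites.

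Damage tolerance lets a cell finish copying DNA when a replicative polymerase stops at a damaged base. RAD18, working with the ubiquitin-conjugating enzyme RAD6, attaches a single ubiquitin to the sliding clamp PCNA, and this mark favors the exchange of the stalled polymerase for a specialized one that can insert a base opposite the lesion. Extension of the ubiquitin into a chain, to which HLTF contributes, is linked to copying from the undamaged sister strand, and PrimPol can restart synthesis beyond the lesion. These enzymes copy undamaged DNA less accurately than the replicative polymerases, and the balance between the routes affects which mutations arise.

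Levels are given as TPM, which was obtained here as reads per base of exon, relative to the sum of that quantity over all genes of a replicate, and which allows genes of different length to be compared. They spanned more than 2 orders of magnitude, from PCNA at 802 ± 36.4 TPM (SD, n = 3) to POLK, the gene of a polymerase that extends past bulky adducts, at 2.36 ± 0.134 TPM (SD, n = 3). All 10 genes had reads in every replicate, and all were above 0.01 TPM, the level below which the study calls a gene nonexpressed. The study divides expressed genes into 3 quantiles, and doing so here over protein-coding genes alone, which was chosen here, placed the boundaries at 3.35 and 26.96 TPM. PCNA, MAD2L2, HLTF and RAD18 were in the high class, REV1, PRIMPOL, POLI, REV3L and POLH in the medium class and POLK in the low class. The high class thus held 4 of 10 members, beside 28.8% of all 19629 protein-coding genes. With a threshold of 1 TPM for expressed genes it held 3 of 10 members, beside 22.5%, and when all genes were classified 7 of 10, beside 47.6% of protein-coding genes. RAD18 left the high class with the longest or the canonical transcript as the length of a gene and with the threshold of 1 TPM. With the longest transcript REV1 took its place, so that an unchanged count of 4 held another gene. POLH was in the low class with the longest or the canonical transcript. Its levels there were 3.07 and 2.46 TPM, against lower boundaries of 3.47 and 3.13 TPM. With coding bases as the length the lower boundary was 3.67 TPM. POLK, at 5.24 TPM, was then in the medium class and REV3L, at 3.18 TPM, in the low class. POLK was also in the medium class with plain shares of reads and when all genes were classified. With the threshold of 1 TPM, REV3L and POLH joined POLK in the low class. The median over the members was 23.3, 24.3 and 22.7 TPM in replicates 1, 2 and 3, beside a median of 11.7 TPM over all expressed protein-coding genes. RNA was measured in bulk, so fewer cells that express a gene and less RNA per cell cannot be told apart.

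The libraries held 10390984, 12024802 and 8655155 counted reads in replicates 1, 2 and 3. At the depth of replicate 3, the shallowest, 1 read on 1 kb of exon was worth 0.451 TPM. The label of the cells was checked against marker genes. All 8 pluripotency genes examined were in the high class, from SALL4 at 259 ± 5.40 TPM to LIN28A at 2576 ± 64.7 TPM (SD, n = 3). Of 8 markers of differentiated lineages, 7 were in the low class and EOMES was in the medium class, at 6.74 ± 1.92 TPM (SD, n = 3). By mean TPM, POLK and POLH lay within the range of the lineage markers, and the other members lay above it. REV3L, at 7.22 ± 0.245 TPM (SD, n = 3), was above EOMES by less than the SD of EOMES. In replicate 1 it was below EOMES, at 7.45 against 8.83 TPM. HAND1 was at 0 reads in replicate 1 and at 2 reads in each of the others.

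The sequences before the start of transcription are shown for PCNA, which had the highest level, and for POLH and POLK, whose starts lie back to back with that of another protein-coding gene, to which the results return below. They were taken from RefSeq on GRCh38.p14, where all 10 members had an entry, and are written 5′ to 3′ on the strand of the member. Bases within an annotated exon of any gene were left out. Capitals mark matches, on either strand, to the CCAAT box (CCAAT), the GC box (GGGCGG) and the half-site of the cyclic AMP response element (TGACG). The GC box matches of POLH overlap each other.
PCNA, chr20:5119959-5120208, minus strand: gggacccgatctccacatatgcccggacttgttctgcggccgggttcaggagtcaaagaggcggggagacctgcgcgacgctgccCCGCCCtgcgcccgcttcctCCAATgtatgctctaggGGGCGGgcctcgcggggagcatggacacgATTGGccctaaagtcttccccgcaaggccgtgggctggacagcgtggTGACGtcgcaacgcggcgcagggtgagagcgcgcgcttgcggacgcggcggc
POLH, chr6:43576039-43576184, plus strand: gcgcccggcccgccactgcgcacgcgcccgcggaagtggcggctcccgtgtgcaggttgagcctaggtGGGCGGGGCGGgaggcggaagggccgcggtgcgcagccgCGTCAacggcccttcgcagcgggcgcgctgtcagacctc
POLK, chr5:75511641-75511758, plus strand: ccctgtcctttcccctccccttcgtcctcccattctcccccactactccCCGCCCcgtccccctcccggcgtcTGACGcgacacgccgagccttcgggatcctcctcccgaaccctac

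All of these sequences were rich in G and C. The GC content was 69.2% over the 250 bases shown for PCNA, 78.1% over the 146 bases shown for POLH and 69.5% over the 118 bases shown for POLK. PCNA had 2 CCAAT boxes, 2 GC boxes and 1 response element half-site in its window. The stretch of POLH had 2 GC boxes and 1 half-site, and that of POLK had 1 of each. A match of this kind is a description of the letters and not a site of binding.

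PCNA (ENSG00000132646, chromosome 20, 5114953 to 5126626, minus strand) encodes the ring that holds polymerases on DNA in normal replication as well as in damage tolerance. Its level was 805.5, 835.9 and 763.3 TPM in replicates 1, 2 and 3, from 2942, 3549 and 2377 reads. It was higher than 99.4% of protein-coding genes. Within each replicate, PCNA was 40.3, 38.8 and 34.5 times the median of the other 9 members, a mean ratio of 37.9 ± 3.02 (SD, n = 3). In plain shares of reads (CPM), which are not corrected for length, the ratio was 6.43. PCNA alone accounted for 73.1 ± 0.890% (SD, n = 3) of the summed TPM of the 10 members, and for 37.6% of their CPM. Annotated copies of PCNA took almost no reads: PCNAP1 had 1 read over the 3 replicates, and PCNAP3 and PCNAP4 had 0, which allows up to 3 reads, against 8868 on PCNA. No exon base of PCNA is shared with another annotated gene.

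RAD18 and HLTF encode the ubiquitin ligases that act on PCNA. RAD18 (ENSG00000070950, chromosome 3, 8775402 to 8963773, minus strand), the ligase of the single ubiquitin, was at 31.5, 30.8 and 26.8 TPM, from 573, 651 and 416 reads. Replicates 1 and 2 lay above the boundary of the high class and replicate 3 slightly below it, and the mean of 29.7 ± 2.52 TPM (SD, n = 3) was within 2 SD of that boundary. HLTF (ENSG00000071794, chromosome 3, 149030127 to 149086554, minus strand), a helicase-like ligase that also reverses stalled forks, was at 67.7, 71.9 and 72.4 TPM, from 1062, 1310 and 968 reads. The TPM of RAD18 was 0.422 ± 0.0477 times that of HLTF (SD, n = 3), and their ranges did not overlap. With coding bases as the length, an alternative chosen after seeing the data, the ratio was 0.938 ± 0.106 (SD, n = 3) and the ranges overlapped.

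The genes that work with these ligases were mostly at levels of the high class. Of 5 ubiquitin-conjugating enzymes and cofactors, 4 were in the high class, beside 28.8% of protein-coding genes, with a median of 40.5 TPM. UBE2A and UBE2B, the 2 human genes for RAD6, had 40.5 ± 1.17 and 28.2 ± 2.90 TPM (SD, n = 3), and UBE2A was 1.45 ± 0.131 times UBE2B, or 3.22 times with canonical transcripts as the length. The mean of UBE2B was within its SD of the boundary of the high class, and replicate 1, at 25.3 TPM, lay below that boundary. With a threshold of 1 TPM for expressed genes the boundary was 37.9 TPM, and UBE2B was not in the high class. UBE2N, which encodes the UBC13 subunit that builds the ubiquitin chain, had 121 ± 7.68 TPM (SD, n = 3). Exons of the opposite strand overlap 41.6% of its exon length, and whether reads were counted by strand is not given. The partners of UBE2N differed, with UBE2V2, the gene of MMS2, at 58.2 ± 1.60 TPM and UBE2V1 at 4.68 ± 1.29 TPM (SD, n = 3). UBE2V1 shares 43.2% of its exon length with the same-strand readthrough gene PEDS1-UBE2V1, on which 0 reads were counted in any replicate, so its value is uncertain. SHPRH, the other relative of yeast Rad5, was at 17.3 ± 0.887 TPM (SD, n = 3), and HLTF was 4.08 ± 0.167 times SHPRH within a replicate, or 1.99 times with canonical transcripts and 1.39 times in CPM. RNF8 was at 23.2 TPM and DTL, part of a ligase that also acts on PCNA, at 106 ± 6.47 TPM (SD, n = 3).

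Genes that load PCNA or reverse its ubiquitination were all in the high class, beside 28.8% of protein-coding genes. The 5 subunits of the loader RFC ranged from RFC5 at 60.6 ± 1.87 TPM to RFC3 at 110 ± 6.94 TPM (SD, n = 3). Of the genes for removal of ubiquitin and unloading of the clamp, USP7 had 176 ± 8.21 TPM and USP1 had 140 TPM. ATAD5, which unloads the clamp, had 46.0 TPM, and WDR48, the cofactor of USP1, had 38.8 ± 2.64 TPM (SD, n = 3).

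**Figure D1:**
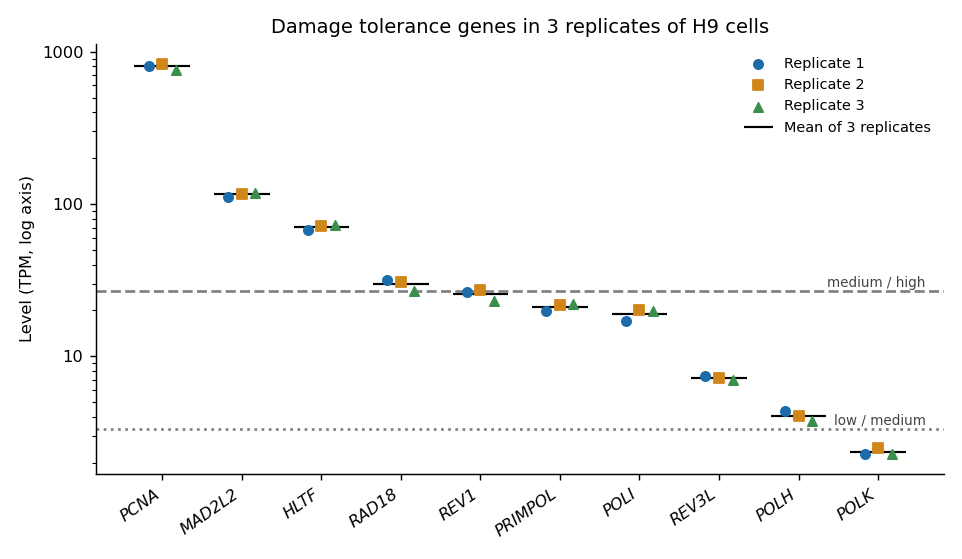
Level of each member in TPM on a log axis, with 1 symbol for each of the 3 replicates of H9 cells, a solid bar at their mean, and broken lines at the class boundaries of 3.35 and 26.96 TPM. PCNA stands apart at 802 TPM, the means of RAD18 and REV1 lie on either side of the upper boundary, and POLK is the only member below the lower one.

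The 4 polymerases of the Y family, which have open active sites that accommodate damaged bases, were in the medium and low classes, except that REV1 was in the high class with the longest transcript as the length, REV1 and POLI were in it with CPM, and both were in it when all genes were classified. REV1 (ENSG00000135945, chromosome 2, 99400475 to 99490035, minus strand), a deoxycytidyl transferase that also serves as a scaffold for the other polymerases, was at 26.6, 27.1 and 23.2 TPM, from 537, 637 and 400 reads. Replicate 2 lay slightly above the boundary of the high class, and the mean of 25.6 ± 2.11 TPM (SD, n = 3) was within its SD of that boundary. POLI (ENSG00000101751, chromosome 18, 54269517 to 54321266, plus strand), which encodes polymerase iota, was at 16.99, 20.1 and 19.8 TPM, from 414, 570 and 412 reads. REV1 and POLI together made up 87.4 ± 0.623% (SD, n = 3) of the summed TPM of the family.

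The other polymerases of the family had few reads. POLH (ENSG00000170734, chromosome 6, 43576185 to 43620523, plus strand), the gene of polymerase eta that copies past ultraviolet photoproducts and is mutated in the variant form of xeroderma pigmentosum, was at 4.41, 4.07 and 3.77 TPM, from 96, 103 and 70 reads. POLK (ENSG00000122008, chromosome 5, 75511845 to 75609991, plus strand) was at 2.30, 2.52 and 2.27 TPM, from 107, 136 and 90 reads. POLK had more reads than POLH in every replicate and a lower TPM, as its exons sum to 17863 bp against 8368 bp. Exact Poisson intervals at 95% for replicate 3 were 2.94 to 4.76 TPM for POLH and 1.83 to 2.79 TPM for POLK, and they cover counting error only. Within a replicate, REV1 was 6.28 ± 0.336 times POLH and 10.8 ± 0.663 times POLK in TPM (SD, n = 3). With the canonical transcript as the length these ratios were 10.3 and 14.6, and with coding bases 3.20 and 3.25. The pseudogene POLHP1 had 7 reads over the 3 replicates, against 269 on POLH.

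Polymerase zeta extends the primer after a Y-family polymerase has inserted a base, and its subunits were at unlike levels. REV3L (ENSG00000009413, chromosome 6, 111299028 to 111483715, minus strand), the catalytic subunit, was at 7.45, 7.24 and 6.97 TPM, from 241, 272 and 192 reads. MAD2L2 (ENSG00000116670, chromosome 1, 11658918 to 11691811, minus strand), the gene of the REV7 subunit that also takes part in break repair and the cell cycle, was at 110.6, 117.1 and 118.9 TPM, from 1564, 1925 and 1433 reads. MAD2L2 was 14.8, 16.2 and 17.1 times REV3L within a replicate, a mean ratio of 16.0 ± 1.12 (SD, n = 3). POLD2 and POLD3, which polymerase zeta shares with the replicative polymerase delta, lay between them, at 49.5 ± 1.51 and 40.0 ± 1.85 TPM (SD, n = 3). The size of the ratio depends on the length assumed for MAD2L2, of which only 14.1% of the exon bases are coding. With the canonical transcript as the length it was 71.3, and with the coding bases 86.2. In CPM it was 7.01, so that MAD2L2 was the higher under each of these scales.

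REV7 also serves other complexes, and their genes were examined from a list of 8. Of these, 5 were in the high class, beside 28.8% of protein-coding genes. RIF1 was the highest, at 93.2 ± 2.22 TPM (SD, n = 3), followed by TRIP13 at 73.8 TPM and TP53BP1 at 65.6 TPM. The 3 SHLD genes encode the partners of REV7 in shieldin, a complex at broken ends. They were in the medium class, with SHLD1 at 5.55 ± 0.522, SHLD2 at 26.7 ± 1.57 and SHLD3 at 7.46 ± 1.38 TPM (SD, n = 3). The mean of SHLD2 was within its SD of the boundary of the high class, and replicate 1, at 28.4 TPM, lay above that boundary. SHLD1 rested on 33, 39 and 24 reads and SHLD3 on 28, 47 and 28 reads. SHLD3 shares 4.60% of its exon length with the same-strand gene TRAPPC13, which had 222, 267 and 183 reads. SHLD1 was the lowest of the list.

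PRIMPOL (ENSG00000164306, chromosome 4, 184649667 to 184694963, plus strand) encodes a primase that starts new DNA beyond a block. It was at 19.97, 21.6 and 22.1 TPM, from 145, 182 and 137 reads, with a mean of 21.2 ± 1.12 TPM (SD, n = 3). This placed it in the medium class, above 66.5% of protein-coding genes.

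In order of mean TPM the members were PCNA, MAD2L2, HLTF, RAD18, REV1, PRIMPOL, POLI, REV3L, POLH and POLK. The order was the same in all 3 replicates. Of the 9 pairs of neighbors in it, 7 had ranges that did not overlap. The ranges of RAD18 and REV1 overlapped, with a ratio of 1.16 ± 0.0252 (SD, n = 3), and so did those of PRIMPOL and POLI, with a ratio of 1.12 ± 0.0521 (SD, n = 3). The step from PCNA to MAD2L2 was a ratio of 6.95 ± 0.461 and that from MAD2L2 to HLTF 1.64 ± 0.00621 (SD, n = 3). Their sizes changed places with the canonical transcript as the length, at 1.48 and 7.45, and with coding bases, at 1.75 and 5.86. The step from REV1 to PRIMPOL was 1.21 ± 0.146 (SD, n = 3).

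The order among the members below HLTF also depended on how the length of a gene was defined. PCNA, MAD2L2 and HLTF were at the top under each of the 4 definitions in the plot of lengths and in CPM. With the longest or the canonical transcript, REV1 stood above RAD18 and POLI above PRIMPOL, which reverses both pairs with overlapping ranges. With coding bases, REV3L was the lowest member, at 3.18 TPM, since 75.6% of its exon bases are coding against 15.0% for POLK and 25.6% for POLH.

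**Figure D2:**
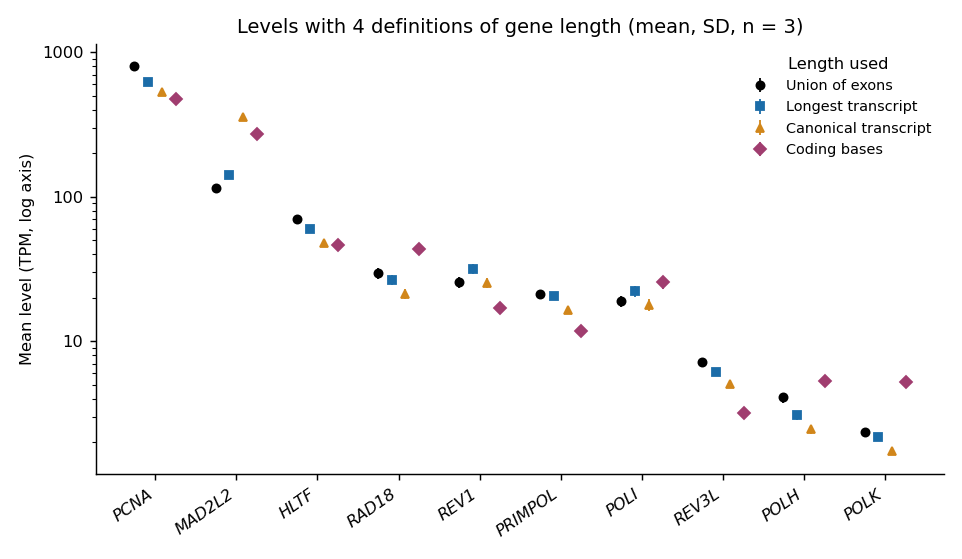
Mean TPM of each member on a log axis with the length of a gene taken as the union of its exons, its longest transcript, its canonical transcript or its coding bases; bars give the SD of 3 replicates and are mostly smaller than the symbols. MAD2L2 moved between 116 and 360 TPM and POLK between 1.74 and 5.24 TPM, while PCNA stayed the highest member throughout.

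The members were set beside the polymerases that copy undamaged DNA. The catalytic subunits of the replicative polymerases, POLA1, POLD1 and POLE, were all in the high class, from POLA1 at 31.9 ± 2.36 TPM to POLD1 at 51.0 ± 7.03 TPM (SD, n = 3). POLD1 shares 8.63% of its exon length with a same-strand gene on which 0 reads were counted in any replicate. With the union of exons as the length, the highest Y-family polymerase, REV1, was at 26.6, 27.1 and 23.2 TPM. The lowest replicative subunit, POLA1, was at 33.7, 32.8 and 29.2 TPM. All 4 Y-family polymerases and REV3L were thus below all 3 replicative subunits in each of the 3 replicates, with the exception that with coding bases as the length the Y family was below them in 1 replicate of 3. Of 5 other specialized polymerases, none were in the high class, from POLB, the gene of the base excision repair polymerase, at 24.9 ± 1.31 TPM to POLN at 0.688 ± 0.106 TPM (SD, n = 3). POLN rested on 16, 16 and 10 reads. It shares 10.4% of its exon length with the same-strand gene HAUS3, which had 254, 286 and 202 reads, so its value is uncertain. POLQ, which joins broken ends by short homologies, was at 22.5 TPM in that list.

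Over 10 lists of pathway genes, 41 genes other than the members were measured, and 25 of them were in the high class, beside 28.8% of protein-coding genes, 15 in the medium class and 1 in the low class. Their median was 38.8 TPM, beside 23.4 ± 0.843 TPM (SD, n = 3) for the members. The number in the high class was 21 with a threshold of 1 TPM for expressed genes, beside 22.5% of protein-coding genes, and 36 when all genes were classified, beside 47.6%. Fork remodelers other than HLTF were lower than it, with FBH1 at 33.1 TPM, ZRANB3 at 8.99 TPM and SMARCAL1 at 8.45 ± 0.459 TPM. Among genes for recruitment and turnover of the polymerases, POLDIP2 was highest, at 147 ± 6.58 TPM, and SPRTN, a protease of cross-linked proteins, was lowest, at 14.1 ± 1.10 TPM (SD, n = 3). PCLAF, a PCNA-binding factor at 14.2 TPM, shares 29.3% of its exon length with another gene of the same strand.

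**Figure D3:**
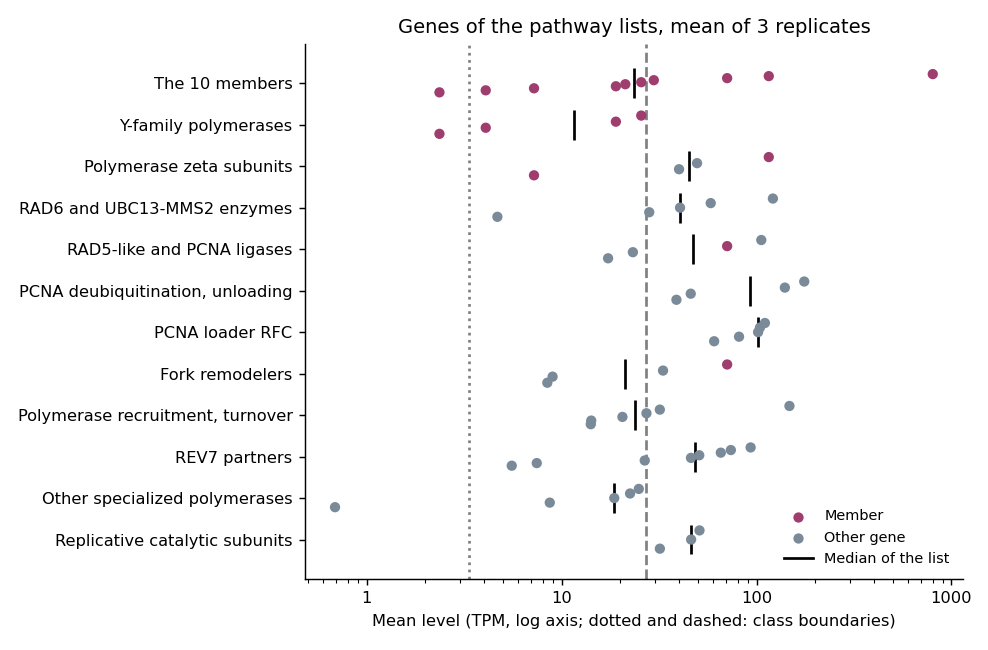
Mean TPM over 3 replicates, on a log axis, of the genes of each list, with members in purple, other genes in grey, a short bar at the median of each list, and broken lines at the class boundaries. The Y family has a median of 11.5 TPM and no gene in the high class with the union of exons as the length, while all genes of the loader RFC, of the list of deubiquitination and unloading, and of the replicative subunits are in it.

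The 5′ ends of 8 of 10 members lay within 1 kb of the 5′ end of an opposite-strand gene, beside 23.5% of all protein-coding genes. For 5 of 10 members that gene was protein-coding, beside 13.3% of all protein-coding genes. By canonical transcripts alone the numbers were 6 of 10, beside 20.8%, and 3 of 10 for protein-coding neighbors, beside 9.88%. Among the latter were POLH with XPO5 and POLK with CERT1, which have 146 and 261 bases between their starts. The pairs of PCNA with CDS2 and of MAD2L2 with DRAXIN rest on upstream starts of the members, as their canonical starts are 7050 and 10562 bp apart.

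Levels of the neighbor are given for 7 of the 8 members. At both of these back-to-back pairs the neighbor was the higher gene in every replicate. XPO5, the exporter of precursor microRNAs, was at 105.9, 105.8 and 96.0 TPM, which is 25.2 ± 1.03 times POLH (SD, n = 3). CERT1, a ceramide transporter, was at 28.3, 28.4 and 27.6 TPM, which is 11.9 ± 0.560 times POLK (SD, n = 3). The ratios remained above 1 with the canonical transcript as the length, at 40.1 and 36.6, with coding bases, at 15.0 and 9.87, and as plain reads, at 25.5 and 9.67. For the other 5 pairs shown in the plot of neighbors the member was higher. CDS2 was at 48.5 ± 2.54 TPM and DRAXIN at 55.5 ± 2.80 TPM (SD, n = 3). The noncoding neighbors HLTF-AS1, ENSG00000277324 and TRAF3IP2-AS1 had 17.7 ± 8.25, 3.25 ± 0.924 and 3.33 ± 0.796 TPM (SD, n = 3). HLTF-AS1 rested on 19, 12 and 24 reads. The last of them was 0.464 times REV3L by union of exons and 1.83 times REV3L with canonical transcripts as the length, so its order to REV3L is not fixed.

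**Figure D4:**
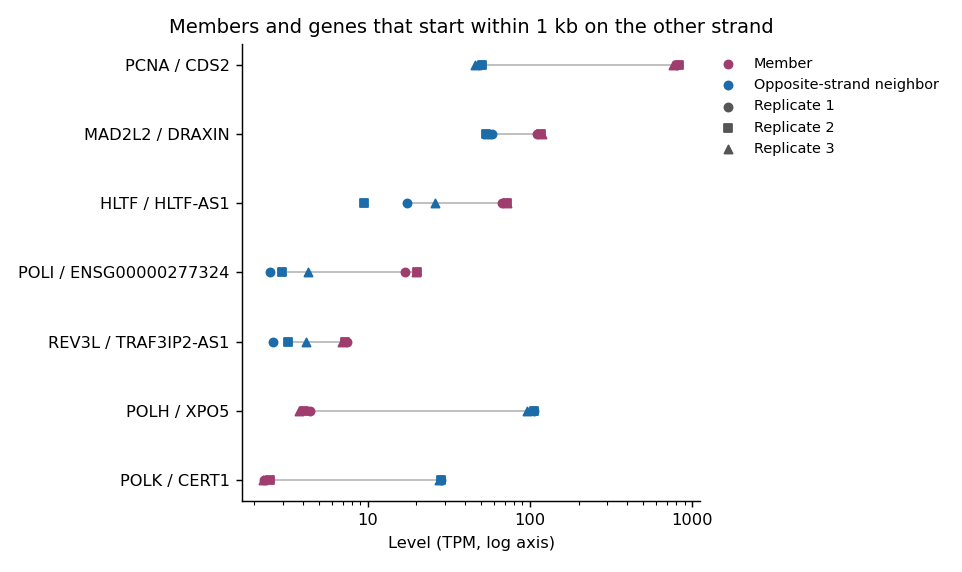
TPM on a log axis of 7 members with the start of an opposite-strand gene within 1 kb (purple) and of that gene (blue), with a symbol shape for each of 3 replicates and a line joining the pair. XPO5 and CERT1 lie above POLH and POLK in every replicate, and the neighbors of the other 5 members lie below them.

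For 8 of 10 members, exon bases overlapped those of an opposite-strand gene, beside 34.2% of all protein-coding genes, and PCNA and RAD18 were the exceptions. The shared part was 29.8% of the exon length of HLTF, 18.6% of PRIMPOL, 17.2% of MAD2L2 and 11.0% of REV1, and from 3.12% to 5.58% in POLH, POLK, POLI and REV3L. In the first 4 of these members the main partners were GYG1, which shared 1649 bp with HLTF, CENPU, which shared 520 bp with PRIMPOL, FBXO6, which shared 876 bp with MAD2L2, and EIF5B, which shared 852 bp with REV1. EIF5B and CENPU were above their partners, at 109 and 123 TPM, while GYG1 and FBXO6 were below theirs, at 17.6 and 6.86 TPM. GTPBP2, the partner of POLH, was at 48.9 ± 2.01 TPM, or 12.1 ± 1.44 times POLH (SD, n = 3). It shared 261 bp, which are 5.52% of its own exon length. GTPBP2 had 580, 693 and 536 reads, beside 96, 103 and 70 on POLH. The sources used here do not give whether reads were counted by strand, so reads of either gene over these bases cannot be told apart, and their part in the levels was not tested. The same limit applies to listed genes such as UBE2N, TP53BP1 and WDR48. They share 41.6%, 28.8% and 20.2% of their exon length with the opposite strand.

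Upstream sequences of the members were compared with those of all genes in the RefSeq promoter table. Over the 250 bases before the start, the members had a median GC content of 70.0% (range 56.8% to 80.8%) and a median of 30 CpG dinucleotides (range 17 to 42), beside 62.0% and 17 for protein-coding genes. The GC box was found in 9 of 10 members, all but POLI, beside 54.3% of 21507 protein-coding promoters and 42.6% of all 35116 promoters. The CCAAT box was found in 3 of 10 members (PCNA, MAD2L2 and HLTF), beside 32.96% of protein-coding promoters and 32.0% of all. The response element half-site was found in 3 of 10 (PCNA, POLH and POLK), beside 24.4% and 21.2%. An E2F-type motif (TTTCCCGC, TTTCGCGC, TTTGCCGC or TTTGGCGC) was found in 3 of 10 (HLTF, POLI and REV3L), beside 3.48% and 2.79%. An ETS-type motif (CCGGAAG) was found in RAD18 and POLI, beside 10.8% and 8.52%, and an NRF1-type motif in RAD18, beside 1.27% and 1.03%. All motifs were read on both strands, and no match says only that these letters are not in the window.

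The spread between replicates was compared with that of other genes. The coefficient of variation of TPM was between 3.39% for REV3L and 9.12% for POLI, with a median of 5.47% over the members, beside a median of 5.57% over 9386 protein-coding genes with at least 100 reads in each replicate. Counting error alone would give 1.86% for PCNA, at a measured 4.55%, and 10.7% for POLH, at a measured 7.82%. For PRIMPOL, REV3L, POLH and POLK the measured spread was below that of counting, so depth limits how finely their levels are known.

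Replicate 3, the library with the fewest reads, was compared with the mean of the others for each member. The log2 ratio was -0.22 for RAD18, -0.21 for REV1 and -0.10 for PCNA, and these 3 lay beyond 2 standard errors of counting. The other 7 members lay within them, from -0.17 for POLH to 0.10 for POLI. All 10 were inside the range of -0.23 to 0.32 that holds the 5th to 95th percentile of 9386 protein-coding genes with at least 100 reads in each replicate, a minimum that POLH and POLK did not reach. After counts had been corrected by GC content of exons in 20 bins, the values of RAD18 and REV1 were -0.15 and -0.14. MAD2L2, the only member with an exon GC content above the median of protein-coding genes, moved from 0.06 to -0.11. HLTF, PRIMPOL and POLI became larger, from 0.05, 0.09 and 0.10 to 0.11, 0.15 and 0.16. The ratios of PCNA, REV3L, POLH and POLK became smaller in size. The median exon GC content of the members was 39.9%, beside 48.5% for protein-coding genes. Whether GC content sets these ratios was not tested.

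**Figure D5:**
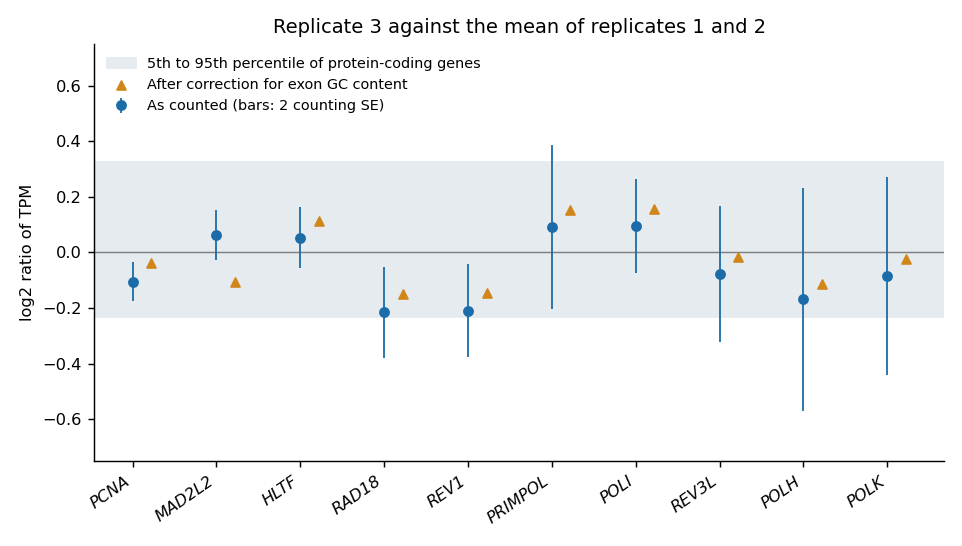
Log2 ratio of the TPM of replicate 3 to the mean of replicates 1 and 2 for each member, as counted (circles, with bars of 2 counting standard errors) and after correction for exon GC content (triangles); the grey band holds the 5th to 95th percentile of protein-coding genes with at least 100 reads in each replicate. RAD18 and REV1 lie near the lower edge of the band at -0.22 and -0.21, and all 10 members lie inside it.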

How the data were processed

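Counts were deposited for 3 H9 libraries. The authors trimmed the reads with Trim Galore (version 0.4.4) and aligned them to GRCh38 with TopHat2 (version 2.1.1), per the submitters' processing notes, and deposited whole-number counts of reads per gene without normalization. Not given in the sources used here are the counting program, the gene annotation and the strand setting. The TPM values of the study, from Cufflinks (version 2.2.1), were not used.

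Identifiers were matched to GENCODE release 44 (56948 of 58051, or 98.1%). TPM was computed from counts and the union of exons. Genes with a mean below 0.01 TPM were called nonexpressed and the other protein-coding genes divided into 3 quantiles. The members and lists were chosen with earlier results of these data known. All members were named, and of each list its counts, median, highest and lowest genes, with any other listed gene allowed, besides genes that overlap or start within 1 kb of a member and annotated pseudogenes of members. Some items among these are not reported here. With 1 condition, no test was made. Values are means and SDs, and levels of neighbors in order were compared by ranges, as 3 against 3 values cannot give an exact permutation p below 0.1.

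Alternatives were the longest or canonical transcript as length, CPM, which corrects for depth alone, TMM factors of edgeR (version 4.0.16), DESeq2 (version 1.42.0) size factors, mitochondrial genes left out, a threshold of 1 TPM, all genes classified, a correction for GC content in 20 bins, and leaving out each replicate. Coding bases as length, and the GC correction of the class count, were added after seeing the data. A count of 0 allows up to 3 reads, and intervals are exact Poisson intervals at 95%. Both leave out any error beyond counting, and PCR duplicates are not separate molecules. In Poisson counts simulated around the measured levels at the real depths, 96.8% of 19629 genes were assigned the class that had been simulated. The largest error in the mean of a member was 16.2%. Spread beyond counting was not simulated, so these values cover counting error only. The software was matplotlib 3.10.9, scipy 1.17.1, pandas 2.3.3 and numpy 2.4.6 under Python 3.11.15, and R 4.3.3.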

Additional observations from a re-analysis of the deposited data

How the results depend on the processing

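The unit and the definition of gene length both moved the results. With the longest transcript, the median level of the members was 24.4 TPM, the ratio of PCNA to the median of the others 28.2 and that of MAD2L2 to REV3L 23.2. With the canonical transcript these were 19.6 TPM, 30.0 and 71.3, and with coding bases, added after seeing the data, 21.3 TPM, 28.2 and 86.2. CPM, another unit, gave 47.6 CPM, 6.43 and 7.01. Leaving mitochondrial genes out raised the median to 24.4 TPM, as the total over which TPM is scaled became smaller. The high class held 7 members when all genes were classified, 6 with CPM and 3 with the canonical transcript or a threshold of 1 TPM, beside 47.6%, 28.8%, 28.8% and 22.5% of protein-coding genes. It held 4 with the longest transcript, where REV1 replaced RAD18. The shifts with gene length follow from the calculation, as the same counts were divided by other lengths and rescaled. Which length fits the transcripts of these cells was not tested. TMM factors, DESeq2 size factors and the GC correction moved no member by more than its SD, whereas the longest transcript moved 9, the canonical transcript 8 and coding bases 10 of 10 (5 higher and 5 lower).

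Leaving out each replicate in turn gave a median of 22.96 to 23.8 TPM, a ratio of PCNA of 36.6 to 39.5, a ratio of MAD2L2 to REV3L of 15.5 to 16.6, 4 members in the high class throughout and 8 to 9 pairs of neighbors without overlap. Ranges over fewer replicates lie within those over all 3. The number of such pairs could therefore not fall below the 7 found with all replicates, and it does not test the order. No paired analysis was possible because all 3 replicates belong to the same condition. Depth limits POLH and POLK most, at 269 and 333 reads over the 3 replicates.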
